A study of Mus musculus with 6 samples.

Results

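ERK feedback genes are transcribed in response to receptor tyrosine kinase signalling and in most cases restrain it. The 10 genes examined here are the ETS transcription factors Etv1, Etv4 and Etv5, the Sprouty genes Spry1, Spry2 and Spry4, the phosphatase genes Dusp4 and Dusp6, and the Sprouty-related genes Spred1 and Spred2. They were chosen by name, with earlier results of these data known. A probe set of the array was used where the platform annotation gave it exactly 1 of these symbols. This found 27 probe sets for 9 of the 10 genes, out of 18194 genes measured in all. Etv1 had no probe set of its own, since the annotation assigned its 3 probe sets jointly to Etv1 and Gm5454, and it has no value here.

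RNA came from EGFP-positive cells of mouse embryos at E11.5, sorted by fluorescence from the dissociated intermediate mesoderm region, the tissue that forms kidneys and gonads. The 3 Pax2 heterozygotes carried 1 EGFP allele (EGFP/+ in the titles) and the 3 Pax2 nulls carried EGFP on both (EGFP/EGFP). All 6 samples thus have at least 1 mutant Pax2 copy, no wild-type sample is included, and EGFP dosage differs along with genotype. The labels do not give the sex, the number of pooled embryos or whether the samples of a genotype came from separate litters, so the p-values given here speak only for the scatter among these 6 samples, some of which could be technical.

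When a growth factor engages a receptor tyrosine kinase such as Ret or an FGF receptor, Ras and the kinases Raf, MEK and ERK are activated in turn. ERK activity raises transcription of Etv4 and Etv5, which carry the signal on to growth and branching genes, and of Spry, Spred and Dusp genes, which act back on the cascade at the level of Ras, Raf or ERK itself. In the early kidney these genes are expressed in ureteric bud tips, where Gdnf acts through Ret, and in mesenchyme that responds to FGFs. Their RNA is therefore widely used as a readout of the pathway.

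Stretches just upstream of the gene start are shown for Dusp6 and Etv5, which had the smallest p-values of the members, for Spred2, whose window held the most of the letters searched, and for Spred1, the member that was not lower in nulls. They are RefSeq windows of GRCm38.p6, 250 bases long and written 5′ to 3′ on the gene's strand. Capitals mark CGGAAG or AGGAAG, a core that ETS factors bind, or TGACGT, part of the cAMP response element, on either strand. AP-1 letters (TGANTCA) were also searched and had no match in the members.
Dusp6, chr10:99262981-99263230, plus strand: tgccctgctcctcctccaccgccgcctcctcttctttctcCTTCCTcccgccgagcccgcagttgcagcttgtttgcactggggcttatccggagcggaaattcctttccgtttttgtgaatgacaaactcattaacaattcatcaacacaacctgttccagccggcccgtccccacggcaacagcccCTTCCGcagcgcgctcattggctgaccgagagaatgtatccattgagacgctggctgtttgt
Etv5, chr16:22439571-22439820, minus strand: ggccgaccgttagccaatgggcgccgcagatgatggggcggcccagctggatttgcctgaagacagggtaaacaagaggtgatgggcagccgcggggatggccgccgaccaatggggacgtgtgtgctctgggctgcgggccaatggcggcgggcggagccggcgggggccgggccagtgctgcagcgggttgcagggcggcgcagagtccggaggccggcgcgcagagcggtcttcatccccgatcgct
Spred2, chr11:19924192-19924441, plus strand: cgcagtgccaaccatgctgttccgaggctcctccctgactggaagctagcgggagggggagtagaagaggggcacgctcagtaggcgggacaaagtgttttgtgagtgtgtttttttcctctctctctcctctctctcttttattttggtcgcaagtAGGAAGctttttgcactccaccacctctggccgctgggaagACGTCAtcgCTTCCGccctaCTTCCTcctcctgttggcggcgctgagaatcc
Spred1, chr2:117120821-117121070, plus strand: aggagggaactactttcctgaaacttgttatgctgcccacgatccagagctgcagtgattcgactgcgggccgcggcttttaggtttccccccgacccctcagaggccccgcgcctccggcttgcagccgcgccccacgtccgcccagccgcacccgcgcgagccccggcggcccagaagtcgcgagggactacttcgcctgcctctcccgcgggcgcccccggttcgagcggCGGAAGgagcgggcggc

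The table of windows held 7 of the 10 genes, with 9 windows among them, and those of Etv4, Spry4 and Dusp4 are not shown. An ETS core was in 4 of the 9 windows, against 39.21% of all 32851 windows of this length. Dusp6 had 2 cores, starting 210 and 62 bases before the gene start, and Spred2 had 3, at 93, 43 and 32 bases, with a TGACGT match at 52 bases. Spred1 had 1 at 17 bases, and 1 of the 2 Etv1 windows had 1 at 8 bases. The windows of Spry1 and Spry2 had none of the letters searched, and neither did either of the 2 Etv5 windows. TGACGT was in 6.469% and TGANTCA in 6.749% of all windows. A match is a description of the letters and not of a bound site.

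Nulls were compared with heterozygotes, a contrast that also differs in EGFP dosage and holds no wild type. Levels were lower in nulls for 8 of the 9 measured genes and higher for Spred1, against 53.6% of all genes with a lower mean. The median change of the 9 was -0.48 on the log2 scale, against -0.02 over all 18194 genes. No p is given for this contrast, since the members were chosen with earlier results of these data known. No member passed limma at an adjusted p under 0.05, where 1.39% of all genes did (253, in either direction). Limma with array weights called 2 of the 9, Etv5 and Dusp6, and 3.03% of all genes. The unmoderated linear model called 0 of the 9 and 0.0165% of all genes. At an unadjusted p under 0.05, 4 of the 9 were lower in nulls, namely Etv5, Dusp4, Dusp6 and Spred2, and 0 were higher, with 4.65% of all genes lower at that level. The 3 null arrays lay below all 3 heterozygote arrays for 5 of the 9, these 4 and Spry1, as they did for 7.16% of all genes. No member had nulls entirely above heterozygotes. The shares of all genes that were higher, by p or by lack of overlap, were not computed, so these counts of 0 have no background. In bulk RNA of sorted cells, fewer cells of a type and less RNA per cell cannot be told apart. The summed level of 12 nephric duct markers was 12.76 to 13.12 in heterozygotes and 11.77 to 12.25 in nulls (log2), and that of 13 stroma markers 13.20 to 13.53 and 14.08 to 14.19. The part of these shifts in the members' levels was not tested.

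The 6 arrays also fell into 3 pairs by their 18 hybridization controls, bacterial and phage transcripts added to each sample. Pair 1 joined heterozygote 1 with null 3, pair 2 heterozygote 2 with null 1, and pair 3 heterozygote 3 with null 2. The labels name no such pairs, and each holds 1 array of each genotype. Fitted with the pair as a block, 4 of the 9 members fell in nulls, namely Dusp6, Etv5, Etv4 and Dusp4, against 1.88% of all genes that fell in that fit. The null array was the lower of its pair in all 3 pairs for 8 of the 9 members, which held for 23.5% of all genes. Spred1 was the higher in all 3. Array medians lay between 6.12 and 6.24 (log2), and arrays of a genotype correlated at 0.976 to 0.991 over all probe sets.

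**Figure D1:**
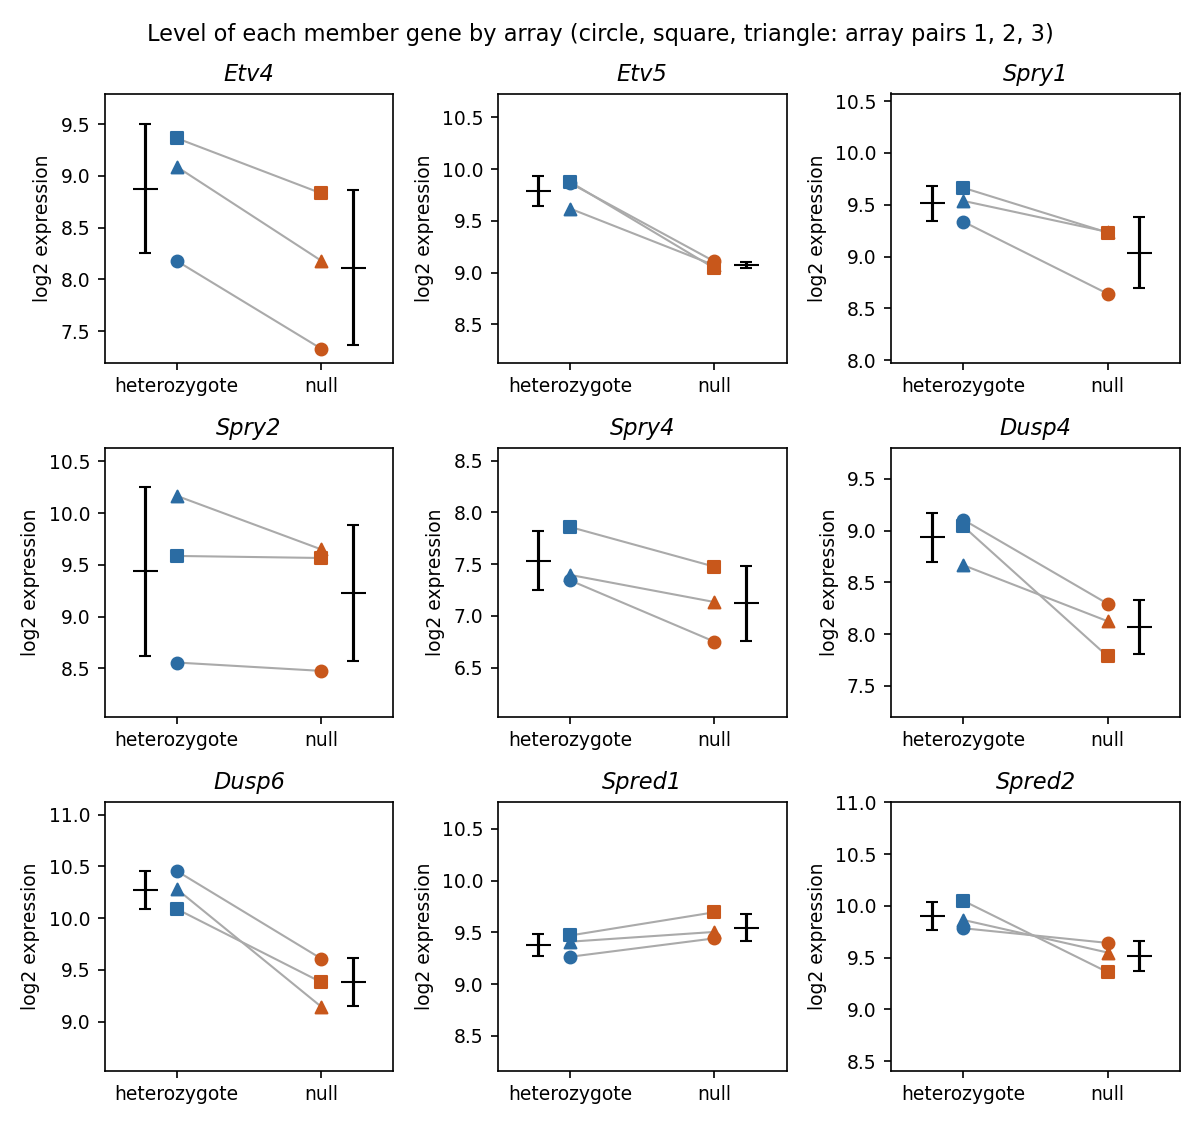
Level of each of the 9 measured genes (y axis, log2 expression, each panel spanning the same range of 2.6 units) in the 3 heterozygote arrays (blue) and 3 null arrays (orange). Symbols and grey lines mark the 3 array pairs, and black bars the mean ± SD of each genotype; lines run down from heterozygote to null in every pair for all genes but Spred1.

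Among the transcription factors, Etv5 separated the genotypes cleanly. Etv5 and its close relative Etv4 act together downstream of Ret in the ureteric bud, and loss of both blocks kidney branching. Etv5 read 9.87, 9.88 and 9.62 in heterozygotes 1 to 3 and 9.04, 9.07 and 9.11 in nulls 1 to 3 (log2). The nulls lay within 0.07 of one another and all below the lowest heterozygote. The change was -0.71 ± 0.15 (SE), with a 95% interval of -1.06 to -0.37, which leaves 61.0% of the heterozygote level (limma, adjusted p = 0.0791). Once pairs were blocked, Etv5 passed (limma, adjusted p = 0.0319). Over 18 alternative fits the adjusted p of Etv5 ranged from 0.0319 to 0.706.

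All 3 probe sets of Etv5 gave a similar size. The probe set 1420998_at read 8.53, 8.88 and 8.93 in heterozygotes and 8.02, 8.05 and 7.66 in nulls, a change of -0.87 ± 0.19 (SE). Its differences within pairs 1, 2 and 3 were -0.88, -0.86 and -0.88. This was the only one of the 27 member probe sets to pass when every probe set was tested with the pair as a block (limma, adjusted p = 0.0322), where 0.695% of all 45037 probe sets passed and were lower. The probe set 1450082_s_at had a change of -0.73 ± 0.27, with overlapping arrays because null 1 (8.91) exceeded heterozygote 1 (8.82).

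Etv4 spread widely within each genotype. It read 8.18, 9.36 and 9.09 in heterozygotes and 8.83, 8.18 and 7.33 in nulls, so that heterozygote 1 lay below null 1. The change was -0.76 ± 0.42 (SE), 59.0% of the heterozygote level, with a 95% interval of -1.74 to 0.22 (limma, adjusted p = 0.709). Without null 3 it was -0.37, and without null 1 it was -1.12. Both arrays of pair 1 were the lowest of their genotype, by 1.05 in the heterozygote and 1.18 in the null against the mean of the other arrays. Within pairs the differences were -0.85, -0.53 and -0.91. With the block the SE was 0.12 and Etv4 passed (limma, adjusted p = 0.0335), the only 1 of 18 alternative fits in which it did. The dimmer Etv4 probe set, 1443381_at, had a similar change of -0.75 ± 0.28 with arrays that did not overlap. It passed neither without nor with the block (limma over all probe sets, adjusted p = 0.532 and 0.194). It did not follow pair 1, the shift of that pair being -0.23 in the heterozygote and 0.52 in the null.

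Both phosphatase genes had lower levels in nulls, without overlap of the genotypes. Dusp6 encodes a cytoplasmic phosphatase that acts selectively on ERK and is itself induced by FGF signalling. It read 10.46, 10.09 and 10.28 in heterozygotes and 9.38, 9.15 and 9.61 in nulls. Every null lay below every heterozygote, with a gap of 0.48 between the nearest arrays. The change of -0.90 ± 0.18 (SE), a 1.86-fold lower level with a 95% interval of -1.32 to -0.47, ranked 320 of 18194 genes by p and was the smallest p of the members (limma, adjusted p = 0.0699). Once pairs were blocked, Dusp6 passed (limma, adjusted p = 0.0230, in a range of 0.0230 to 0.592 over 18 alternative fits).

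Dusp4 encodes a nuclear phosphatase of MAP kinases that is also induced by ERK. It read 9.11, 9.04 and 8.67 in heterozygotes and 7.79, 8.13 and 8.29 in nulls, again without overlap. The change was -0.87 ± 0.20 (SE), with a 95% interval of -1.33 to -0.41, a 1.83-fold lower level (limma, adjusted p = 0.104, falling to 0.0486 once pairs were blocked). The block was the only 1 of 18 alternative fits in which Dusp4 passed (limma, adjusted p up to 0.789). The differences within pairs ran from -0.54 in pair 3 to -1.26 in pair 2, a wider span than for Dusp6 (-0.71 to -1.14). Each of these genes had a single probe set, so neither value has a second measurement on the array.

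**Figure D2:**
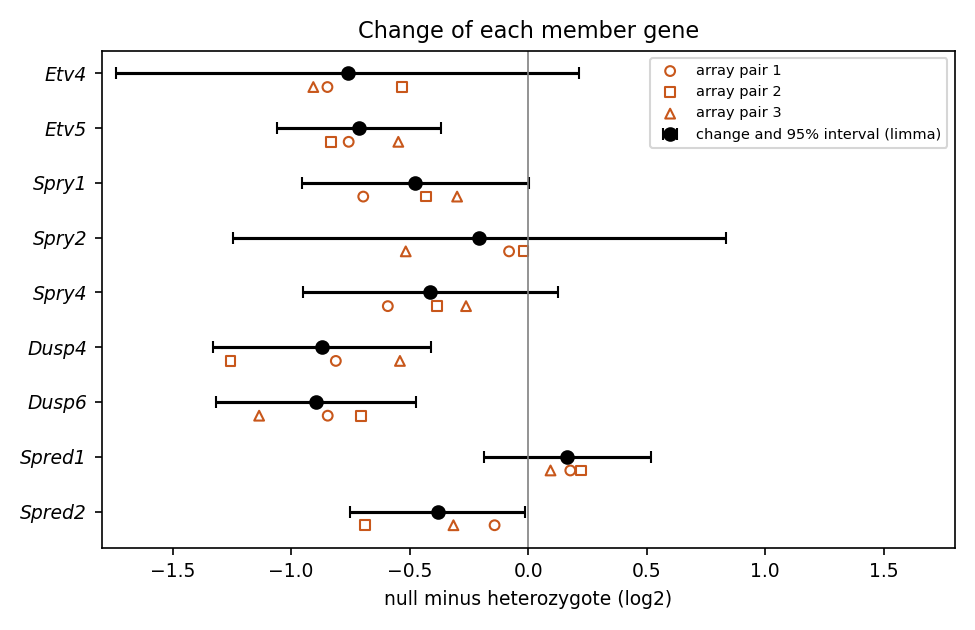
Change of each measured gene, null minus heterozygote (x axis, log2), with its 95% interval from limma without a block (black) and the differences within array pairs 1 to 3 (open orange symbols). The intervals of Etv5, Dusp4, Dusp6 and Spred2 lie below 0, and the widest are those of Etv4 and Spry2.

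Sprouty genes, whose proteins damp signalling from receptor tyrosine kinases, had smaller changes than Etv5 or the phosphatase genes, and none passed in any of 18 alternative fits. Spry1 keeps Gdnf-Ret signalling in bounds, and embryos without it form extra ureteric buds. It read 9.34, 9.66 and 9.54 in heterozygotes and 9.23, 9.24 and 8.64 in nulls. The genotypes did not overlap, although heterozygote 1 and null 2 lay only 0.10 apart. The change was -0.48 ± 0.21 (SE), with a 95% interval of -0.96 to 0.00, 71.9% of the heterozygote level (limma, adjusted p = 0.516, or 0.107 with pairs blocked). Without null 3 it was -0.28.

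Spry4 read 7.34, 7.86 and 7.40 in heterozygotes and 7.48, 7.13 and 6.75 in nulls, with null 1 above heterozygotes 1 and 3. Its change was -0.41 ± 0.23 (SE; limma, adjusted p = 0.718), or -0.23 without null 3 and -0.25 without heterozygote 2. All 4 of its probe sets were lower in nulls, by -0.29 to -0.43, and all 4 had overlapping arrays.

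Spry2 read 8.56, 9.59 and 10.17 in heterozygotes and 9.57, 9.65 and 8.48 in nulls, so the genotypes overlapped throughout. The change was -0.21 ± 0.45 (SE), with a 95% interval of -1.25 to 0.84, too wide to give a direction (limma, adjusted p = 0.992). It turned to 0.16 without heterozygote 3 and to 0.17 without null 3. The spread followed the array pairs. In the probe set used here, 1421656_at, the arrays of pair 1 stood 1.32 and 1.13 below the mean of the other arrays of their genotype. In the other Spry2 probe set, 1436584_at, the same arrays stood 0.81 and 1.11 above it. The bioB hybridization controls averaged 10.52 in heterozygote 1 and 10.55 in null 3, against 7.23 to 8.20 in the other arrays (log2). Their relation to these shifts was not tested. A mean shift of pair 1 by more than 1 in size was found in 1.87% of all probe sets and in 2 of the 27 of the members, those being 1421656_at and the Etv4 probe set 1423232_at. Within pairs both Spry2 probe sets were lower in every null, by -0.08, -0.02 and -0.52 in the first and -0.21, -0.52 and -0.49 in the second. Neither passed with the pair as a block (limma over all probe sets, adjusted p = 0.586 and 0.225).

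**Figure D3:**
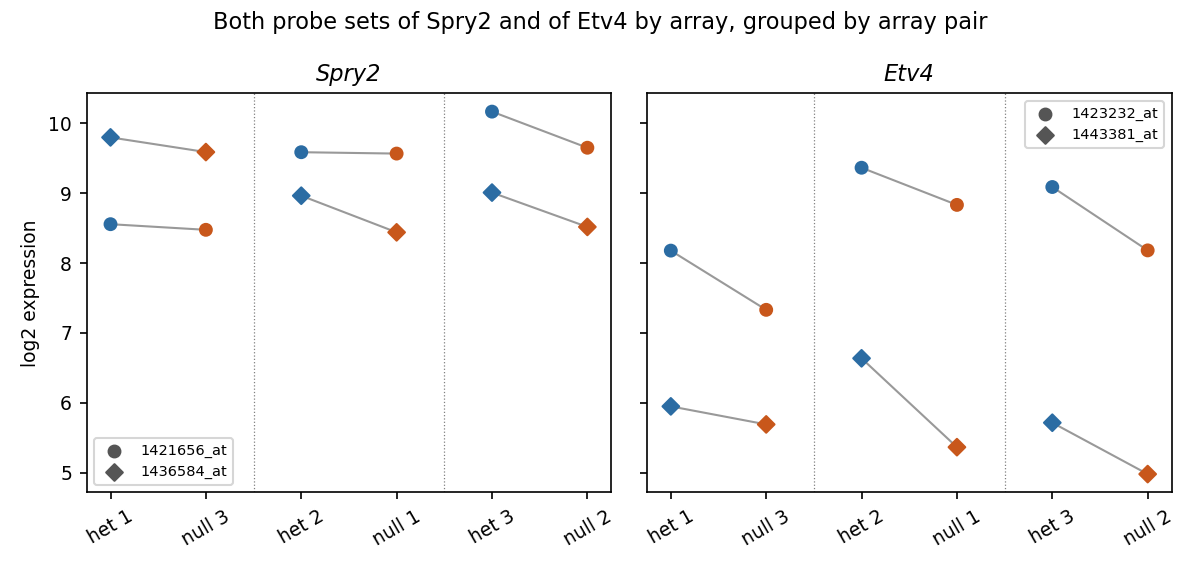
Both probe sets (circles and diamonds) of Spry2 and of Etv4 in each array (x axis, blue for heterozygotes and orange for nulls, dotted lines separating the 3 array pairs) against log2 expression. For Spry2 pair 1 is low in 1 probe set and high in the other, while within each pair the null lies below the heterozygote.

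Spred proteins block the activation of Raf by Ras, Spred1 through the Ras inactivator neurofibromin. Spred1 and Spred2 had changes of opposite sign. Spred2 read 9.78, 10.05 and 9.87 in heterozygotes and 9.36, 9.55 and 9.64 in nulls, without overlap. The change was -0.38 ± 0.16 (SE), 76.7% of the heterozygote level, with a 95% interval of -0.75 to -0.01 (limma, adjusted p = 0.483, or 0.217 with pairs blocked). Without pair 2 it was -0.23. Of its 5 probe sets 4 were lower in nulls, 2 of them without overlap. The exception, 1441415_at, had a change of 0.03 at a level near 4.0 in both genotypes, below the 33rd percentile of all probe sets (4.79).

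Spred1 read 9.26, 9.47 and 9.41 in heterozygotes and 9.69, 9.50 and 9.44 in nulls. Null 3 fell between the heterozygotes, and the change of 0.17 ± 0.15 (SE) had a 95% interval of -0.19 to 0.52 (limma, adjusted p = 0.921). Its 8 probe sets lay between -0.20 and 0.17, 3 lower and 5 higher in nulls, and all had overlapping arrays. The interval of Spred1 thus does not reach the changes of Etv5, Dusp4 or Dusp6, although the difference between genes was not tested.

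Across the family, 21 of the 27 probe sets were lower in nulls, a share that was not computed over all probe sets. Of the 27, 13 belonged to Spred1 and Spred2, so the genes did not count equally. For 8 of the 27 the null arrays lay entirely below the heterozygote arrays, against 6.13% of all probe sets, and for 0 entirely above. The share of all probe sets entirely above was not computed. Of the 6 genes with several probe sets, Etv4, Etv5, Spry2 and Spry4 had a single sign throughout. No member probe set passed limma without the block, where 0.691% of all probe sets did, and 8 had an unadjusted p under 0.05, all lower in nulls, against 3.63% of all probe sets.

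**Figure D4:**
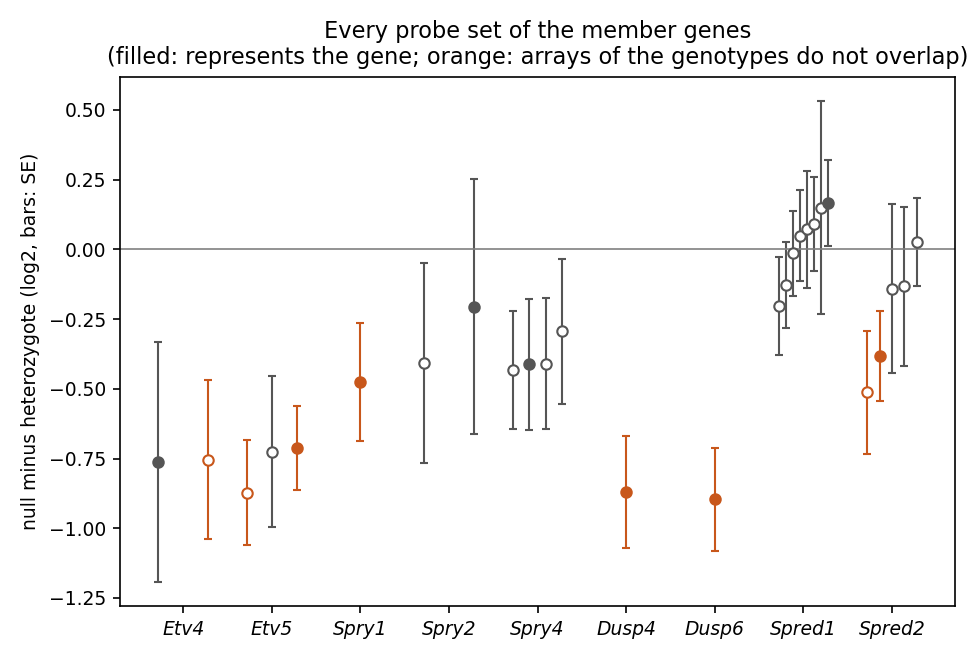
Change of each of the 27 probe sets (y axis, null minus heterozygote in log2, bars ± SE from limma over all probe sets), by gene. Filled circles represent the gene in the gene-level fit, and orange marks the 8 probe sets whose null arrays all lie below the heterozygote arrays; Spred1 straddles 0.

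The wider pathway was read list by list, beside the 1.39% of all genes that passed limma without the block. Of 19 other feedback and target genes of ERK, Dusp2 fell and 0 rose, with a median change of -0.13. Dusp2, a nuclear phosphatase of MAP kinases, went from 6.70 ± 0.24 to 5.72 ± 0.09 (SD, n = 3 each), a change of -0.98 ± 0.17 (SE; limma, adjusted p = 0.0397). That call was lost in each of the 6 fits with 1 array left out (limma, adjusted p = 0.0646 to 0.161) and held with the pair as a block (limma, adjusted p = 0.0137). Flrt3, a membrane protein that promotes FGF signalling, had a change in the other direction of 1.03 ± 0.22 (limma, adjusted p = 0.0778). The growth regulator Myc had one of -0.94 ± 0.24 (limma, adjusted p = 0.139), and Dusp10, a phosphatase for p38 and JNK, one of 0.48 ± 0.16. Once pairs were blocked, Flrt3 rose and Myc fell as well. Of the members' own relatives, Spry3, on a dim probe set below the 33rd percentile, had a change of 0.29 ± 0.27, and Spred3 one of -0.15 ± 0.16.

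None of 15 measured genes of the core cascade passed with or without the block, and their median change was 0.06. The 4 with the smallest p, Map2k1 (-0.28 ± 0.18, SE), which encodes MEK1, the adaptors Shc1 (0.25 ± 0.20) and Gab1 (0.27 ± 0.22), and the ERK effector kinase Rps6ka3 (-0.30 ± 0.24), had overlapping arrays. The RNA of kinases and adaptors does not report their activity.

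Upstream of the cascade, some receptors and ligands had larger estimated changes than the members. Of 22 receptor tyrosine kinases, Ret fell by 3.37 ± 0.48 and the stromal receptor gene Pdgfrb rose by 1.90 ± 0.18 (log2, SE; limma, adjusted p = 0.0189 and 0.00443). Ret did not pass when heterozygote 2, heterozygote 3 or null 1 was omitted (limma, adjusted p = 0.0749, 0.0857 and 0.0656). Epha4 (0.68 ± 0.17) and Pdgfra (1.69 ± 0.47) were next by p and rose only with the pair as a block. Of 24 ligands and co-receptors, Gdnf fell 4.01-fold, from 8.53 ± 0.15 to 6.53 ± 0.17 (log2, SD, n = 3 each), and Igf1 rose by 3.53 ± 0.28 (log2, SE; limma, adjusted p = 0.00332 for each). Both passed with any 1 array left out. Without the block, the Gdnf co-receptor Gfra1 (-1.60 ± 0.30) and its relative Gfra3 (1.49 ± 0.29) did not pass; with it Gfra1 fell and Gfra3 rose. In size, the change of Ret (-3.37) exceeded that of each of the 9 members (at most -0.90), a difference between genes that was not tested.

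The FGF ligands in that list were picked out after their values were seen. Fgf10 had a change of -1.14 ± 0.26, Fgf9 of -0.79 ± 0.19, Fgf8 of -0.53 ± 0.16 and Fgf20 of -0.52 ± 0.21 (SE). Fgf1 had one of -0.41 ± 0.17, whereas Fgf2 (0.01 ± 0.43) and Fgf7 (-0.01 ± 0.17) were near 0 on dim probe sets, with means below the 33rd percentile of all probe sets (4.79). None of these passed without the block, and Fgf9 and Fgf10 fell with it (limma, adjusted p = 0.0240 and 0.0310). The receptors Fgfr1 (-0.11 ± 0.29) and Fgfr2 (-0.18 ± 0.29) differed by less than their errors, and Fgfr4 had a change of -0.22 ± 0.19. Fgfr3 had one of 0.41 ± 0.17, with nulls all above heterozygotes, and passed neither without the block (limma, adjusted p = 0.467) nor with it (0.154).

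A further list held 7 measured genes that act downstream of Ret and of Etv4 and Etv5 in bud tips. Of these 6 had lower means in nulls, with a median of -0.55. Ret itself and Gfra1, both already given upstream, are in this list and had its largest changes (-3.37 and -1.60). The median without them was not computed. Besides Ret and Gfra1, the transcription factor Myb had a change of -0.78 ± 0.28 and the bud tip signal Wnt11 one of -0.55 ± 0.27, both with overlapping arrays. Myb fell with the pair as a block (limma, adjusted p = 0.0233). The chemokine receptor gene Cxcr4 and the growth factor receptor gene Met had changes of -0.02 ± 0.19 and -0.07 ± 0.18. The list's only higher mean was that of Mmp14, a matrix protease gene, with a change of 0.42 ± 0.29 and overlapping arrays.

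Of 20 other ETS factors, Fli1, a factor of blood vessels and blood cells, rose by 1.48 ± 0.19 and Elf5, an epithelial factor, fell by 2.42 ± 0.42 (SE; limma, adjusted p = 0.0125 and 0.0372). Each call was lost in 3 of the 6 fits with 1 array left out, Fli1 when heterozygote 2, heterozygote 3 or null 1 was omitted (limma, adjusted p up to 0.0608) and Elf5 without heterozygote 3, null 1 or null 2 (up to 0.145). The null arrays of Elf5 read 3.54, 3.31 and 4.29, all below the 33rd percentile of all probe sets (4.79), so the size of its fall is uncertain. Ehf (-0.71 ± 0.17) and Erg (-0.88 ± 0.23) did not pass without the block and fell with it. The median of the list was -0.11.

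Immediate early genes, which respond to ERK and also to handling of cells during dissociation, had a median change of 0.19. Of 21 measured, 17 had higher means in nulls and 0 passed without the block. Klf4 (0.81 ± 0.24) and Ier5 (0.68 ± 0.24) rose and Fosl2 (-0.87 ± 0.33) fell with it, whereas Klf6 (0.59 ± 0.24) passed in neither. Fos and Egr1 had changes of 0.39 ± 0.44 and 0.01 ± 0.34.

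**Figure D5:**
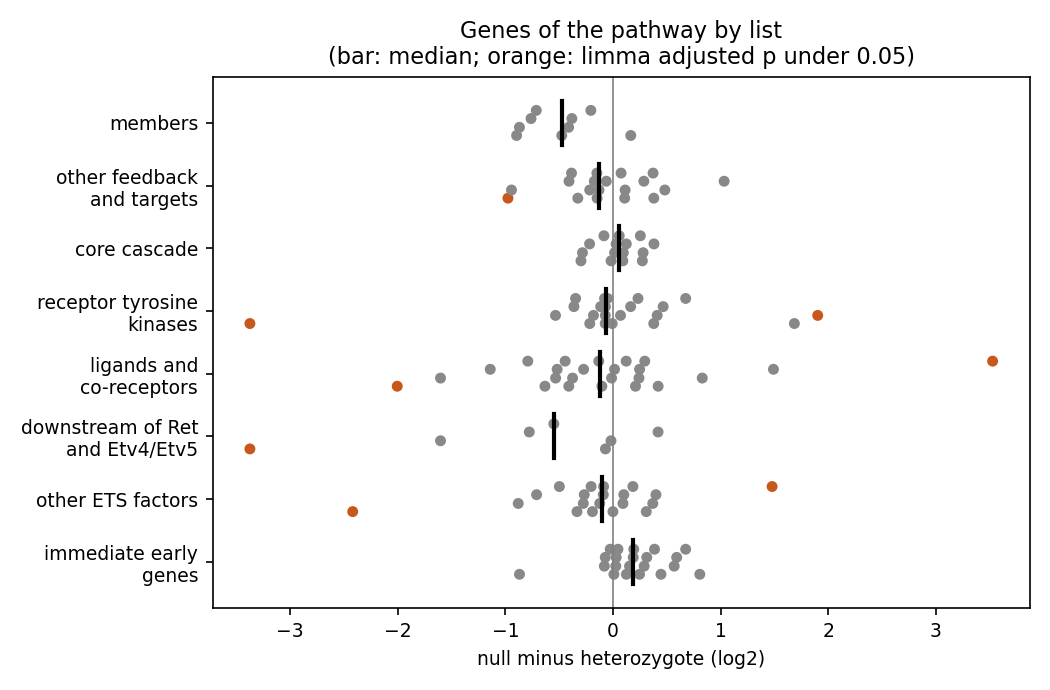
Change of each measured gene (x axis, null minus heterozygote in log2) in the 9 members and 7 lists of the pathway, with black bars at the medians and orange for genes with limma's adjusted p under 0.05. The medians of the members (-0.48) and of the genes downstream of Ret (-0.55) lie left of 0, those of the other 6 lists between -0.13 and 0.19. The list downstream of Ret includes Ret and Gfra1 themselves.

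Markers of the cell types in the sort moved with genotype as well. Of 12 nephric duct markers 5 fell and 0 rose without the block, and 7 fell and 2 rose with it. Those 2 were the transcription factor genes Tfap2a (0.75 ± 0.21, SE) and Tfap2b (1.19 ± 0.24), whose null arrays all lay above the heterozygote arrays. Of 12 markers of metanephric mesenchyme and nephron progenitors 4 fell and Cited1 rose (6 and 1 with the block), with summed levels (log2 of the summed linear values) of 13.53 to 14.10 against 13.25 to 13.79. Of 13 stroma markers 6 rose and 0 fell (8 and 0 with the block). Of 13 macrophage markers 0 passed without the block and 5 rose with it, at 9.67 to 10.80 against 10.85 to 12.29. The summed levels of 10 endothelial markers overlapped, at 9.13 to 9.51 and 9.15 to 9.48. Of these 0 passed without the block, and Erg fell with it. Of 10 neuronal markers Nefm and Stmn2 rose and Elavl4 fell (3 rose and 1 fell with the block, Gap43 being added). Of 8 muscle and 6 erythroid markers 0 passed without the block, and the muscle marker Actc1 rose with it. Leaving out any 1 array kept the calls of Lhx1, Calb1 and Sim1 (duct), Gdnf (mesenchyme), Tbx18, Pdgfrb and Postn (stroma) and Nefm, and the other calls were lost in at least 1 of those 6 fits. All 12 duct, 12 mesenchyme and 13 stroma markers had means above the 33rd percentile, as did 12 of 13 macrophage, 9 of 10 neuronal, 7 of 10 endothelial, 4 of 8 muscle and 4 of 6 erythroid markers.

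The genes whose profile over the 6 arrays came nearest to a member were found by the root mean square distance of log2 values, each gene centred on its mean. Nearest to Dusp6 were Susd1 (0.084), Fam189a2 (0.113) and Ism1 (0.117), and nearest to Etv5 were Kcnj15 (0.050), Idi1 (0.069) and Psat1 (0.084). Nearest to Spry1 were Cfap52 (0.033), Ptprg (0.049) and the ligand gene Fgf20 (0.057). Etv4 had no neighbour as close, the nearest being Bcl2 (0.198), Prkce (0.217) and Nkrf (0.221). Of these 12 genes Susd1 alone passed without the block, with a fall of 0.97 ± 0.17 (log2, SE; limma, adjusted p = 0.0351). With the block Susd1, Ism1, Fam189a2 and Psat1 fell (limma, adjusted p = 0.0118 to 0.0276). The 12 genes were chosen for likeness to members that were lower in nulls. Such calls therefore follow from the choice and are no separate result. Kcnj15 was on a dim probe set, with a mean below the 33rd percentile of all probe sets.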

How the data were processed

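RNA of EGFP-positive cells (10 ng per sample, biotin-labelled cDNA from the NuGEN WT-Pico Ovation kit, per the labels' protocols) was hybridized to 1-colour Affymetrix arrays, 3 per genotype. The deposited values are log2 expression per probe set, and the submitters' processing notes name affy, RMA and limma, with settings and chip description not given in the sources used here. RMA equalizes distributions between arrays, which hides any difference in total RNA, and compresses differences between dim probe sets. The table held 45101 probe sets, 64 of them array controls that were left out of the tests. The platform annotation gave 34958 exactly 1 symbol, 932 several and 9211 no entry.

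Of several probe sets of a gene, the brightest on average stood for it. The genotypes were tested against each other by limma 3.58.1 under R 4.3.3, using lmFit and eBayes with genotype as the only term. Two-sided p-values were adjusted by Benjamini and Hochberg's method across the 18194 genes or, where stated, the 45037 probe sets, and 0.05 was the threshold. Signs give null relative to heterozygote, means carry SDs (3 arrays each) and changes carry SEs, and intervals are 95%. The number of arrays limits the precision. Array pairs were the best of 15 matchings of the 6 arrays on 18 hybridization controls, made without genotype (summed distance 1.97, next 5.06). After removal of genotype means, arrays of a pair correlated across genes at 0.377 or more, and other arrays of opposite genotype at 0.097 at most. The pairs come from the data and not from the labels.

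The members, the gene lists, the tests and the alternatives were chosen with earlier results of these data known. The genes named are all members, up to 4 genes with the smallest p in each pathway list, and the 3 genes nearest to Etv4, Etv5, Spry1 and Dusp6. Other genes were added after their values were seen, namely Spry3, Spred3, the FGF ligands and receptors, Cxcr4, Met, Mmp14, Fos, Egr1, and the cell type markers. The genotype labels were not checked against the targeted gene, Pax2, which is not analysed here. The fit was tested on simulated data. Alternatives were an intensity-dependent or robust prior, removal of dim probe sets, a fresh quantile normalization, arrays centred on their medians, weights per array, 1 array or pair left out, other thresholds, a minimum fold, no moderation, pairs as a block, and averaging the probe sets of a gene.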

Additional observations from a re-analysis of the deposited data

How the results depend on the processing

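The count of 0 member genes past limma's threshold rose to 2 with array weights (Etv5 and Dusp6), to 2 at a threshold of 0.10 (the same genes), to 1 when probe sets of a gene were averaged (Dusp6) and to 4 with the array pair as a block. It was 0 in the other 17 of 21 alternatives, among them each fit with 1 array or 1 pair left out and the unmoderated linear model. The count of 0 member probe sets rose to 2 with array weights, for which the share of all probe sets was not computed. It rose to 1 with the pair as a block, where 0.695% of all probe sets passed and were lower. All genes past the threshold numbered 253, against 551 with array weights, 824 with the block and 368 when probe sets of a gene were averaged. They numbered 51 and 405 at thresholds of 0.01 and 0.10, 3 without moderation, and 1 and 2 without pairs 2 and 3. With 1 array left out they numbered 84 to 318, so a gene missing the threshold in such fits may reflect fewer arrays. The cause of the other shifts was not tested. The members' median change stayed between -0.37 (without null 3) and -0.65 (without heterozygote 1). Every member kept its sign in 18 alternative fits, except Spry2, which turned to 0.16 without heterozygote 3 and 0.17 without null 3. Array weights are estimated from the same 6 arrays, and the block rests on pairs found in the data. No paired analysis by replicate number was possible because the labels give the genotypes no shared numbers. Centring arrays on their medians moved the median of all genes from -0.02 to -0.05. With 3 arrays a genotype, the changes of Spry2 and Spred1 are near the errors of the fit.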
